A study of Canis lupus familiaris with 31 samples.

Results

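The genes described here make and maintain the red cell: the enzymes that build heme, the carriers and receptors that supply it with iron and substrate, the proteins of the red cell membrane and its skeleton, and the regulators of erythroid maturation. They were taken from a list of 33 gene symbols, and a row of the table of counts was matched when the symbol that follows the Ensembl identifier in its name was 1 of these. Of the 33 genes, 31 were found by symbol among the 32704 rows, and 29 of them had enough counts to be tested in edgeR. GATA1 and BNIP3L were not analysed here. RNA from whole blood of Miniature Schnauzers was sequenced to ask which transcripts differ in HTG, an excess of triglycerides in fasting serum that is common in the breed. The 13 cases had the label HTG and the 18 controls did not have it. All 31 were pet dogs of this breed sampled once after a fast, with 5 females and 8 males among the cases and 8 females and 10 males among the controls. The labels give neither treatment nor age.

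Red cells arise in the bone marrow from progenitors that depend on erythropoietin. As they mature they switch on heme synthesis and globin, take up iron through the transferrin receptor, assemble the band 3 and spectrin skeleton, and then lose their nucleus. The youngest red cells in blood, the reticulocytes, still carry RNA made before that loss, and older red cells have lost nearly all of it, so that erythroid transcripts in whole blood come mainly from young red cells. In bulk RNA, fewer cells of a type and less RNA per cell cannot be told apart.

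Each dog gave 1 library with 14524659 to 41533599 counts, and levels are given as CPM, the counts of a gene scaled to a fixed library size, after TMM scaling, the edgeR normalization that removes differences in library composition. Of 9 red cell line markers all 9 were found and tested, and markers of platelets (11 of 12 found), neutrophils (5 of 7), monocytes (4 of 5), T cells (4 of 5) and B cells (5 of 5) had counts in every dog. The main globin chains were not analysed here. Before any comparison, 2 dogs stood apart. Control 03 was the highest dog in 15 of the 29 tested genes and case 01 in 10 of them, and the scaling factor of control 03 was the lowest of all, at 0.527. The 31 genes found took 3.79% of the counts of control 03 and 3.07% of those of case 01, against a median of 0.966% in the cases and 0.573% in the controls. The share of mapped reads assigned to genes, which the paper's supplement gives for each dog, was not set beside these levels. The dogs also fell on either side of a gap in the mean level of 330 rows of small non-coding RNAs, with 10 dogs on the high side (5 cases and 5 controls, among them control 03) and 21 on the low side (8 cases and 13 controls, among them case 01). This split was found in the counts and is no label. The study's methods describe a pilot batch with as many cases and controls as the high side, and a term for that batch in the model. The sources used here do not name its dogs, so whether they are those of the high side is not known, and the edgeR fits here hold no batch term unless the split is named.

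ALAS2, which catalyzes the first and limiting step of heme synthesis in red cell precursors, lay between 547 and 14210 CPM among cases (median 2913). Among controls it lay between 480 and 24510 CPM (median 1237). Control 03 was above every case and case 01 above every other control, and 11 of 13 cases lay above the control median, with the ranges overlapping almost entirely. The log2 fold change for cases over controls was 0.63 ± 0.52 (SE; adjusted p = 0.732, quasi-likelihood test of edgeR, Benjamini-Hochberg adjustment over the 13918 genes tested), which did not pass the threshold of 0.05.

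ALAD, the next enzyme, which joins a pair of aminolevulinate molecules, lay between 6.91 and 28.2 CPM among cases (median 11.8) and between 4.49 and 15.6 CPM among controls (median 5.97). All 13 cases lay above the control median, and 4 of them lay above all controls. Case 07 was highest and control 09 lowest. The means were 13.4 ± 6.40 CPM for cases (SD, n = 13) and 7.41 ± 3.04 CPM for controls (SD, n = 18), and the estimated log2 fold change was 0.86 ± 0.20 (SE; adjusted p = 0.0752, edgeR with Benjamini-Hochberg adjustment). ALAD passed the threshold with DESeq2, a negative binomial test of the same counts (adjusted p = 0.0147).

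The other enzymes of the pathway did not pass the threshold. CPOX, which acts in the mitochondrion on coproporphyrinogen, had 26.3 to 93.7 CPM in the cases (median 46.5) and 26.4 to 92.2 CPM in the controls (median 32.0), and its log2 fold change was 0.51 ± 0.19 (SE; adjusted p = 0.328, edgeR with Benjamini-Hochberg adjustment). FECH, which places iron into the finished ring, had 77.9 to 848 CPM in the cases (median 306) and 65.3 to 1418 CPM in the controls (median 175). The ranges of both genes overlapped from end to end. For FECH the log2 fold change was 0.55 ± 0.40 (SE). UROD, UROS and PPOX, the remaining enzymes on the list, had log2 fold changes of 0.54 ± 0.42, 0.27 ± 0.21 and 0.40 ± 0.34 (SE).

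**Figure D1:**
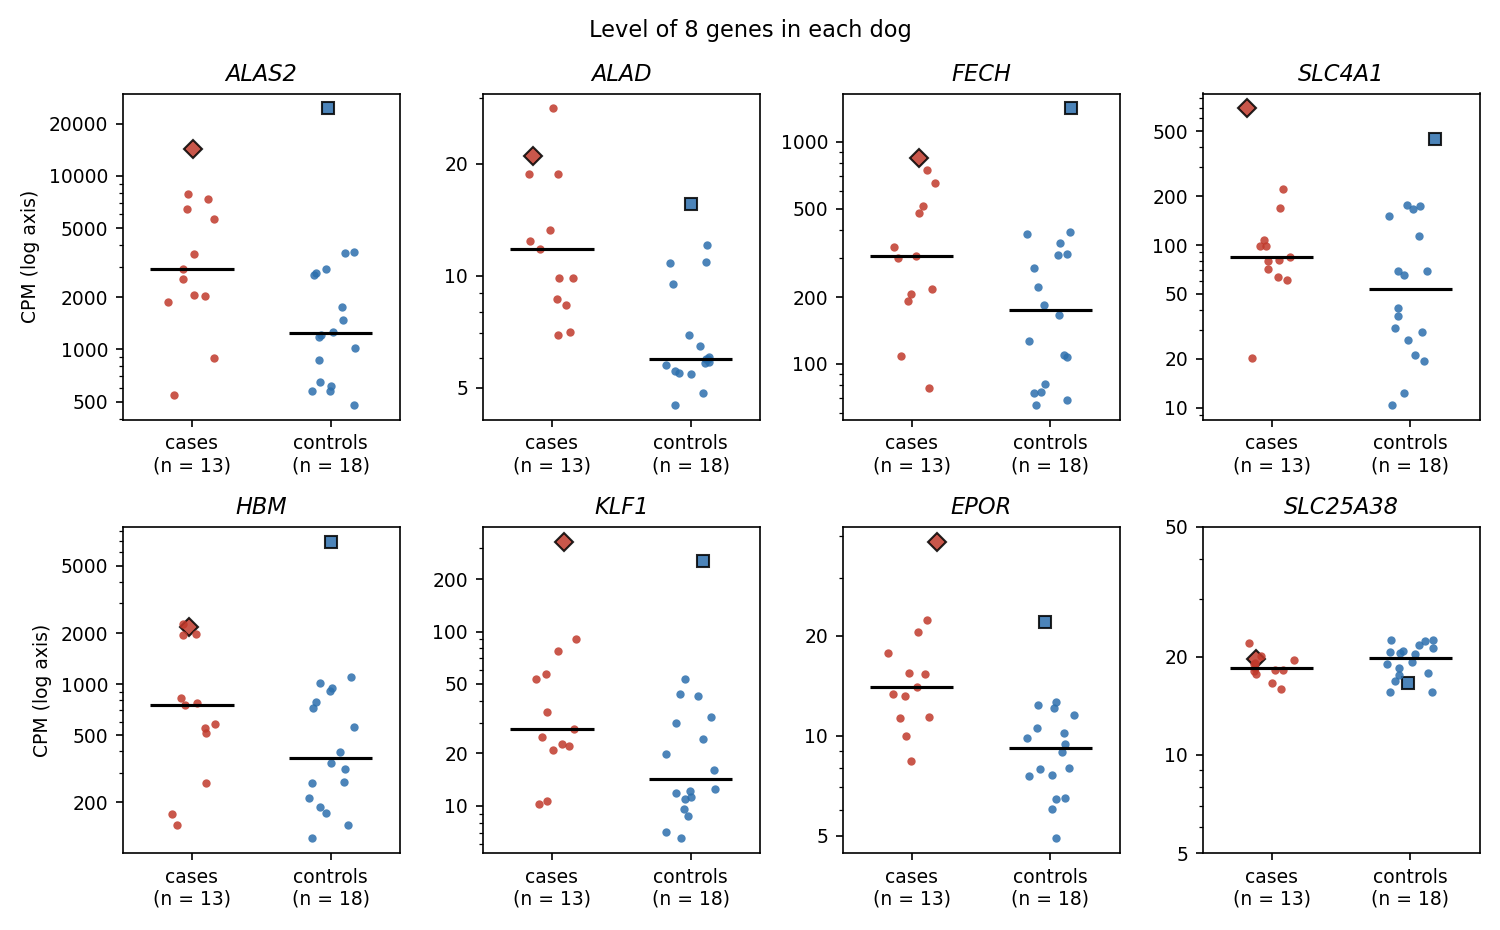
Level of 8 genes in each of 13 cases and 18 controls, in CPM on log axes of different ranges; each point is 1 dog, the bar is the group median, the diamond is case 01 and the square is control 03. The groups overlapped in all 8 genes; case 01 and control 03 were the highest dogs in KLF1 and SLC4A1, while SLC25A38 varied only between 15.6 and 22.5 CPM.

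The genes that bring iron and substrate to heme synthesis were of different kinds. TFRC, the transferrin receptor, had 56.3 to 296 CPM in the cases (median 113) and 44.2 to 291 CPM in the controls (median 65.0), and 11 of 13 cases lay above the control median. Its log2 fold change was 0.61 ± 0.26 (SE; adjusted p = 0.419, edgeR with Benjamini-Hochberg adjustment). SLC25A37 (mitoferrin-1), which carries iron into the mitochondrion, had a log2 fold change of 0.21 ± 0.19 (SE). SLC25A38, the mitochondrial glycine carrier that feeds the ALAS2 reaction, was the steadiest of the tested genes, with 16.0 to 22.0 CPM in the cases and 15.6 to 22.5 CPM in the controls. Only 2 of 13 cases lay above its control median, and its log2 fold change was −0.06 ± 0.06 (SE). TFR2, a second transferrin receptor, had at most 13 counts in any dog and was not tested in edgeR.

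Among the genes of hemoglobin, AHSP, the chaperone of free alpha globin, had 10.3 to 410 CPM in the cases (median 80.3) and 15.4 to 330 CPM in the controls (median 38.2). HBM, an alpha-like globin gene, had 147 to 2252 CPM in the cases (median 753) and 123 to 6911 CPM in the controls (median 367). For both, 10 of 13 cases lay above the control median and the ranges overlapped throughout, with control 03 alone above all cases in HBM. The log2 fold changes were 0.74 ± 0.45 (SE) for AHSP and 0.22 ± 0.52 (SE) for HBM.

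Among the genes of the membrane and its skeleton, SLC4A1 (band 3, the anion exchanger) had the widest range of the tested genes. It had 20.2 to 692 CPM in the cases (median 84.5) and 10.4 to 450 CPM in the controls (median 53.3), a 66.5-fold span between case 01 and control 10. A total of 12 of 13 cases lay above the control median, but 1 alone, case 01, lay above all controls. ANK1, the ankyrin that ties band 3 to spectrin, had 38.6 to 812 CPM in the cases (median 111) and 23.0 to 493 CPM in the controls (median 57.0). The log2 fold changes were 0.63 ± 0.48 (SE) for SLC4A1 and 0.77 ± 0.42 (SE; adjusted p = 0.567, edgeR with Benjamini-Hochberg adjustment) for ANK1. SPTB (beta spectrin), DMTN (dematin), EPB42 and EPB41 (proteins 4.2 and 4.1) and RHAG (the Rh-associated channel) had log2 fold changes between 0.33 (EPB41) and 0.65 (SPTB), with SE between 0.34 and 0.51. XK, the membrane partner of the Kell antigen, differed from these in its spread, with 48.7 to 125 CPM in the cases (median 69.4) and 24.9 to 99.9 CPM in the controls (median 51.1). For XK, 11 of 13 cases lay above the control median and 2 above all controls, and the log2 fold change was 0.50 ± 0.19 (SE; adjusted p = 0.337, edgeR with Benjamini-Hochberg adjustment).

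Among the regulators, EPOR, the erythropoietin receptor, had 8.43 to 38.4 CPM in the cases (median 14.1) and 4.92 to 22.0 CPM in the controls (median 9.21). It was above the control median in 12 of 13 cases and above all controls in 2 of them. The means were 16.3 ± 7.75 CPM for cases (SD, n = 13) and 9.71 ± 3.83 CPM for controls (SD, n = 18), and the estimated log2 fold change was 0.75 ± 0.19 (SE; adjusted p = 0.113, edgeR with Benjamini-Hochberg adjustment), and EPOR passed the threshold with DESeq2 (adjusted p = 0.0299). KLF1, the factor that switches on many erythroid genes, had 10.2 to 327 CPM in the cases (median 27.4) and 6.49 to 256 CPM in the controls (median 14.2). Its log2 fold change was 0.84 ± 0.52 (SE), close to that of ALAD but with a far wider error. TAL1, a factor shared by the erythroid and megakaryocyte lines, varied far less, with 18.6 to 39.0 CPM in the cases (median 25.02) and 15.2 to 42.8 CPM in the controls (median 20.1). Its log2 fold change was 0.33 ± 0.13 (SE; adjusted p = 0.355, edgeR with Benjamini-Hochberg adjustment).

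The remaining genes serve red cell metabolism and late maturation. BPGM, which makes the 2,3-bisphosphoglycerate that loosens oxygen from hemoglobin, had 78.7 to 1153 CPM in the cases and 56.4 to 2434 CPM in the controls, with a log2 fold change of 0.24 ± 0.49 (SE). CA2 (carbonic anhydrase) and SLC2A1 (the glucose transporter GLUT1) had log2 fold changes of 0.31 and 0.04. TRIM58 and TRIM10, ubiquitin ligases of the last erythroid stages, had log2 fold changes of 0.44 ± 0.37 and 0.65 ± 0.42 (SE). FAXDC2 had 1.37 to 4.99 CPM over all dogs, with a log2 fold change of −0.25 ± 0.18 (SE). TSPO2 had at most 13 counts in any dog and was removed by the filter on low counts before the edgeR test. DESeq2, run without that filter on low counts, gave it an adjusted p of 0.908.

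Over all 29 genes, 27 had a positive and 2 (SLC25A38 and FAXDC2) a negative log2 fold change, with a median of 0.50, against a median of −0.02 over all genes tested. None of the 29 passed the threshold in edgeR, where 0.0359% of all genes tested did. At an unadjusted p under 0.05 there were 6 (ALAD, EPOR, CPOX, XK, TAL1 and TFRC), all with the higher level in cases, against 9.81% of all genes tested in either direction and 5.04% with the higher level in cases. DESeq2 tested TSPO2 beside these 29, and of the 30 genes ALAD and EPOR passed, where 0.526% of all genes tested did. With limma-voom none of the 29 passed, and 15 had an unadjusted p under 0.05, all with the higher level in cases, against 11.2% of all genes tested in either direction and 6.75% with the higher level in cases. ALAS2 was among these 15, with a log2 fold change of 1.05 ± 0.48 (SE; adjusted p = 0.409, limma-voom). Most of the genes varied together from dog to dog, so the 27 are not separate observations.

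**Figure D2:**
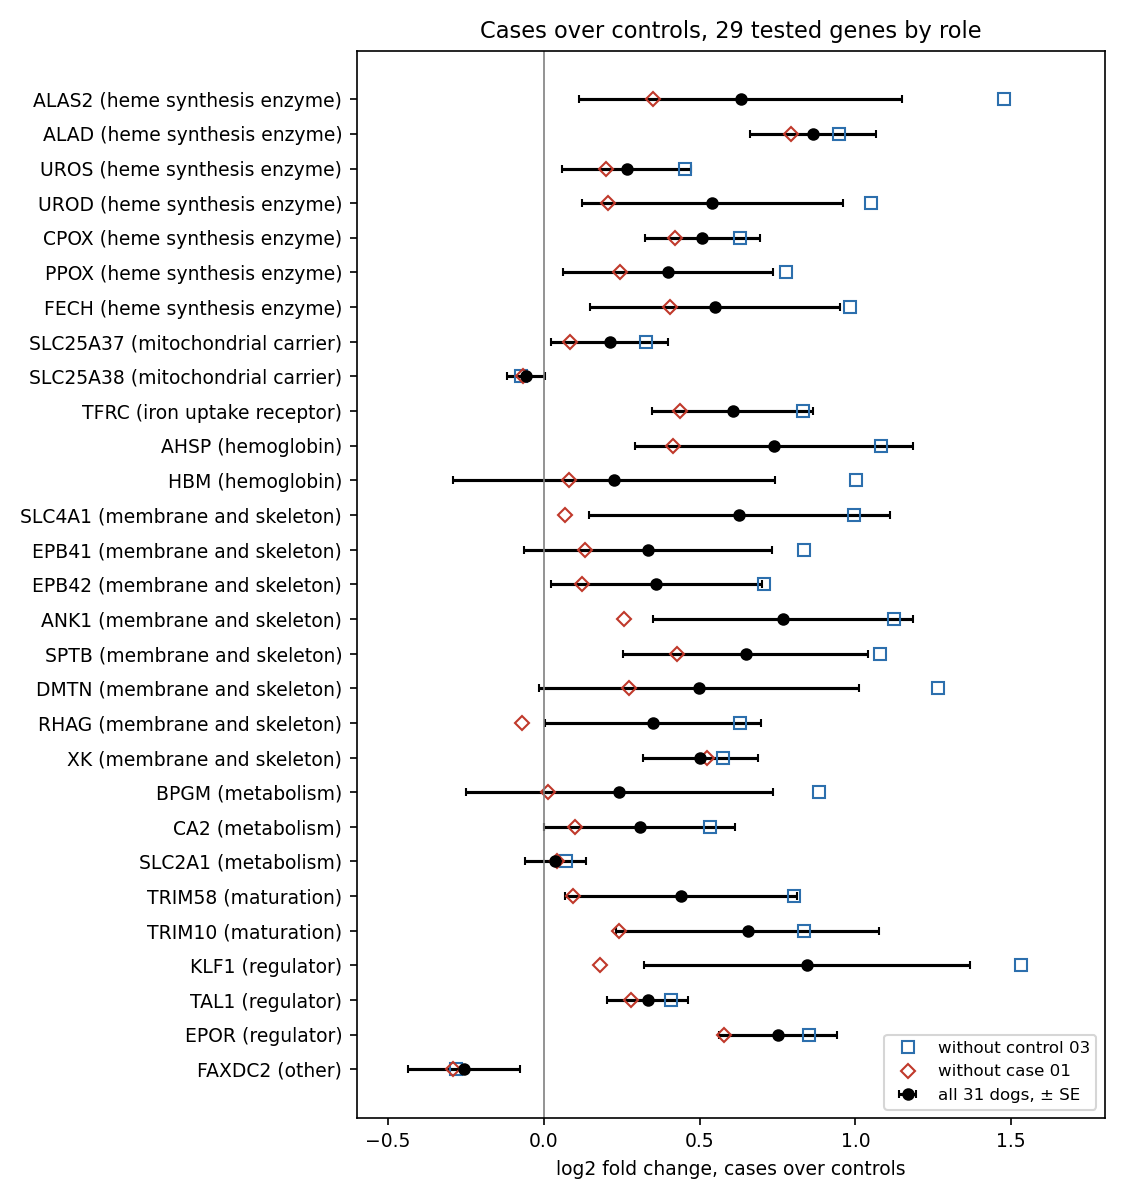
Log2 fold change of each of the 29 tested genes for cases over controls, grouped by role; black points are fits with all 31 dogs and bars are ± 1 SE, open squares are fits without control 03 and open diamonds fits without case 01. Genes with a wide range over the dogs moved with either dog, as in KLF1 (0.84 with all dogs, 1.53 without control 03 and 0.18 without case 01), while ALAD kept 0.95 and 0.79.

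The number of genes that passed changed with control 03 and with the test. Without control 03, 5 of the 29 passed the threshold in edgeR, namely ALAD (log2 fold change 0.95), EPOR (0.85), CPOX (0.63), TFRC (0.83) and ALAS2 (1.48, adjusted p = 0.0492 with Benjamini-Hochberg adjustment), against 1.11% of all genes tested (154 genes). The median over the 29 genes was then 0.83, and 23 of them had an unadjusted p under 0.05, against 16.5% of all genes tested. Without case 01 the median fell to 0.21, none passed, ALAS2 had 0.35 and RHAG turned to −0.07. With both dogs left out the median was 0.61, 16 genes had an unadjusted p under 0.05, against 13% of all genes tested. ALAD and EPOR then passed (both adjusted p = 0.0497, edgeR with Benjamini-Hochberg adjustment), against 0.2% of all genes tested. When any 1 of the other 29 dogs was left out, the median stayed between 0.40 and 0.54 and none of the 29 genes passed. Over 47 alternatives the adjusted p of ALAD lay between 0.0147 and 1.00 and that of EPOR between 0.0230 and 1.00 (edgeR, DESeq2 or limma-voom with Benjamini-Hochberg adjustment), and each passed in 4 of them. That of ALAS2 lay between 0.0492 and 1.00 and passed in 1, as did CPOX and TFRC. The gain in calls without control 03 rests on leaving out the dog with the highest ALAS2 level, and the choice of this dog was made with its values known.

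Other measures were read beside these genes. The 11 platelet markers found all had positive log2 fold changes, and none passed the threshold in edgeR (lowest adjusted p = 0.107, Benjamini-Hochberg adjustment). The paper, using DESeq2 with a batch term, reported enriched pathways of platelet function among its differentially expressed genes. In edgeR, 10 of the 11 markers had an unadjusted p under 0.05, against the 9.81% and 5.04% of all genes tested given above. Their summed level was 2118 to 7589 CPM in the cases and 1288 to 6808 CPM in the controls, with none at 0 in any dog. With the platelet marker score, the mean centred log2 CPM of these markers, added to the model, the 29 genes had a median log2 fold change of 0.08 and 19 were positive. ALAD then had 0.68 and EPOR 0.26, and ALAD alone of the 29 had an unadjusted p under 0.05, against 5.7% of all genes tested. On the high side of the small RNA split the median was −0.01, with 14 genes positive and ALAD alone at an unadjusted p under 0.05, against 3.85% of all genes tested. Control 03 was 1 of the 5 controls on that side. The median dog there had more ALAS2 in the cases (3530 CPM) than in the controls (1270 CPM), and more KLF1 (27.4 and 12.5 CPM). Of the tested genes, only XK (70.4 and 78.0 CPM) and FAXDC2 (1.63 and 2.5 CPM) had the lower median level in the cases of that side. On the low side the median log2 fold change was 0.70, with 27 positive and 11 at an unadjusted p under 0.05, against 10.6% of all genes tested. MPO, a marker of marrow granulocyte precursors, did not pass the threshold either (log2 fold change 2.43 ± 0.56, SE; adjusted p = 0.0741, edgeR with Benjamini-Hochberg adjustment), and the summed level of the 3 such markers found was 1.46 to 32.4 CPM in the cases and 0.301 to 5.57 CPM in the controls, each of the 3 being at 0 counts in at least 1 dog. The part of these measures in the log2 fold changes was not tested.

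The genes were next compared across all dogs. Pearson correlations were taken on log2 CPM between ALAS2 and each of the other 28 genes, with p-values from permutation tests of 100000 resamples adjusted over the 28. They share library depth and scaling. Over a range of 5.67 log2 units in ALAS2, neighboring dogs were at most 0.86 log2 units apart. A total of 26 genes passed the threshold, 25 with a positive r and FAXDC2 with a negative one. An r as far from 0 as the smallest of the 26 was found in 42.1% of all genes tested, and in 18.2% with a positive sign. The median r was 0.859, against −0.07 over the other 13917 genes tested, and 19 of 28 had an r over 0.8, against 3.46% of those genes.

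The genes closest to ALAS2 came from several roles. DMTN had r = 0.98 (rho = 0.96), EPB41 r = 0.97 (rho = 0.96), FECH r = 0.97 (rho = 0.96), BPGM r = 0.95 (rho = 0.93) and HBM r = 0.94 (rho = 0.93), each with an adjusted permutation p of 1.22e-05, whose unadjusted p of 1e-05 is the smallest these permutations can give. Without control 03 and case 01, the 2 dogs farthest from the median of ALAS2, r was 0.96 for DMTN, 0.95 for EPB41, 0.96 for FECH, 0.92 for BPGM and 0.92 for HBM. Within cases alone r lay between 0.93 and 0.98 for these 5 genes and within controls alone between 0.95 and 0.97. On the high side of the small RNA split it lay between 0.95 and 0.98 and on the low side between 0.93 and 0.97.

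All enzymes of heme synthesis on the list followed ALAS2, with r from 0.82 (CPOX) to 0.97 (FECH). SLC25A38 and SLC2A1 did not pass, SLC25A38 with r = −0.25 (rho = −0.21, adjusted permutation p = 0.182) and SLC2A1 with r = 0.23 (rho = 0.14, adjusted permutation p = 0.211). FAXDC2 passed narrowly (r = −0.38, rho = −0.39, adjusted permutation p = 0.0402) and did not pass within cases, within controls or on either side of the small RNA split. XK (r = 0.46, rho = 0.43, adjusted permutation p = 0.00954) did not pass in these subsets either. With the group means taken out over all 31 dogs, XK (r = 0.35, adjusted permutation p = 0.0554) and FAXDC2 (r = −0.32, adjusted permutation p = 0.0846) did not pass. EPOR (r = 0.63, rho = 0.53, adjusted permutation p = 0.000152) passed in all of them but the cases alone. SLC25A38 was the gene whose level followed the depth of the library, with r = 0.60 (rho = 0.55, adjusted permutation p = 0.00928 over 29 genes) against log10 of total counts and r = 0.53 without the 2 dogs farthest from the median.

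**Figure D3:**
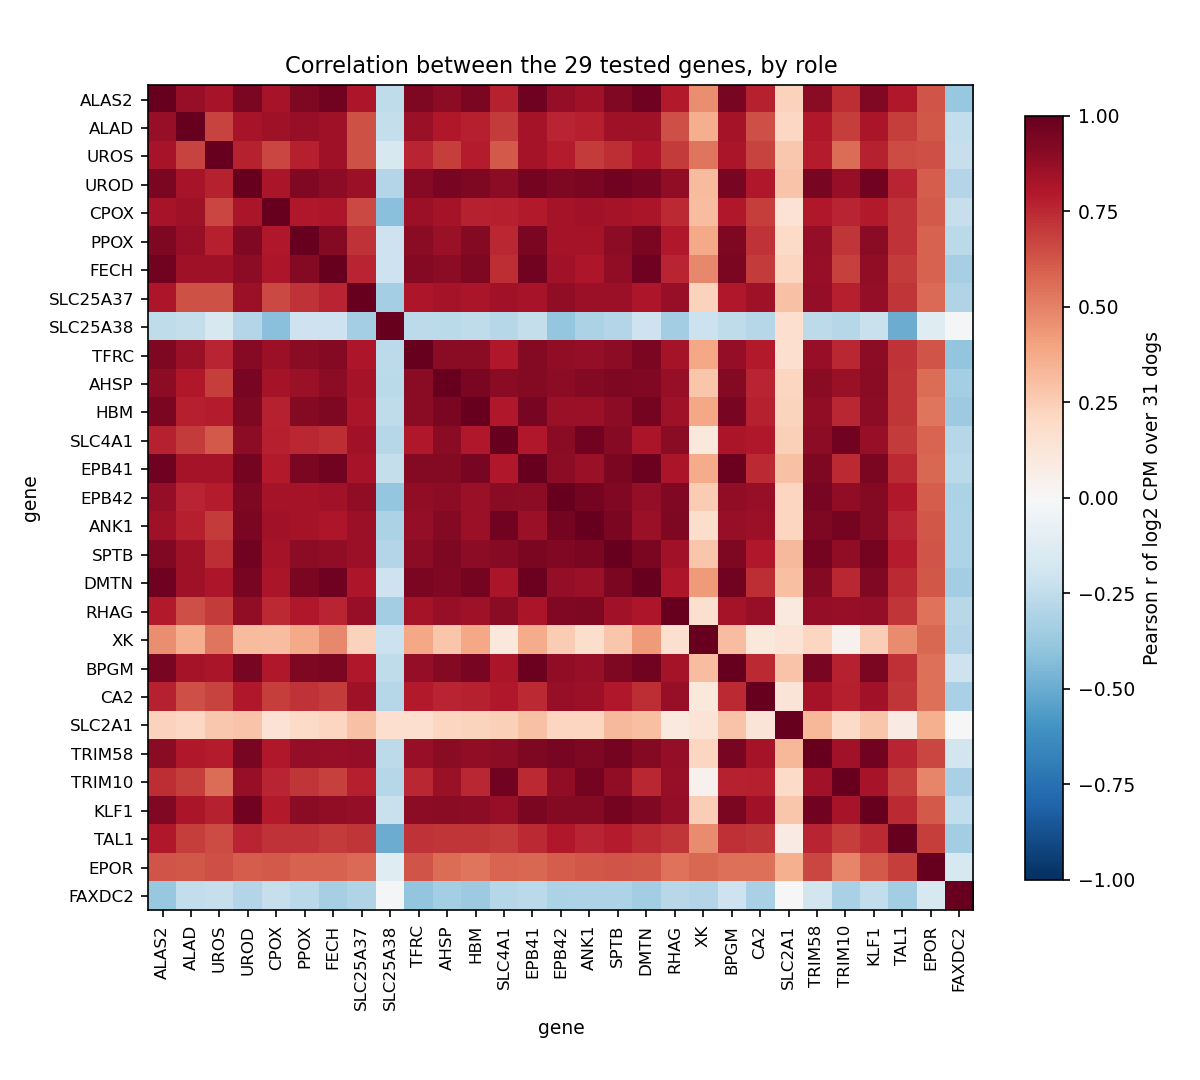
Pearson r of log2 CPM over 31 dogs for every pair of the 29 tested genes, in order of role; the color runs from −1 (blue) to 1 (red). The block of red holds most genes, while SLC25A38, SLC2A1, XK and FAXDC2 stand out as pale or blue rows.

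Of the 406 pairs among the 29 genes, 314 passed the threshold (permutation tests with 100000 resamples, Benjamini-Hochberg adjustment over the pairs), 309 of them with a positive r. The median r over all 406 pairs was 0.783. An r at least as far from 0 as the smallest of these 314 (0.376) was found in 19.6% of all pairs of genes tested. The highest r was that of EPB41 and BPGM (0.98, rho = 0.98; adjusted permutation p = 1.69e-05), and it was 0.98 without case 01 and control 03. SLC4A1 had r = 0.97 with ANK1 and r = 0.96 with TRIM10, and 0.77 with ALAS2, so that the genes of band 3 and its anchor varied more closely with each other than with the heme enzyme. The difference between these r values was not tested. Control 09 was the dog that showed it most. It held rank 26 of 31 for ALAS2, where rank 1 is the highest dog, and rank 5 for SLC4A1, TRIM10 and RHAG, rank 3 for CA2 and rank 8 for EPB42 and ANK1. The ranks did not divide by role. Among the heme enzymes it was the lowest of all dogs for FECH, PPOX and ALAD, but held rank 28 for UROS, rank 21 for CPOX and rank 17 for UROD, and it held rank 4 for SLC25A37. Among the membrane genes it held rank 18 for SPTB, rank 27 for EPB41 and rank 29 for DMTN, and was the lowest for XK. The log2 level of SLC4A1 minus that of ALAS2, which serves here only to compare dogs, lay 3.17 above its median over the dogs in control 09 and 2.30 above it in case 03 (SD 0.96 over the dogs). Both dogs were picked out after their values were seen.

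**Figure D4:**
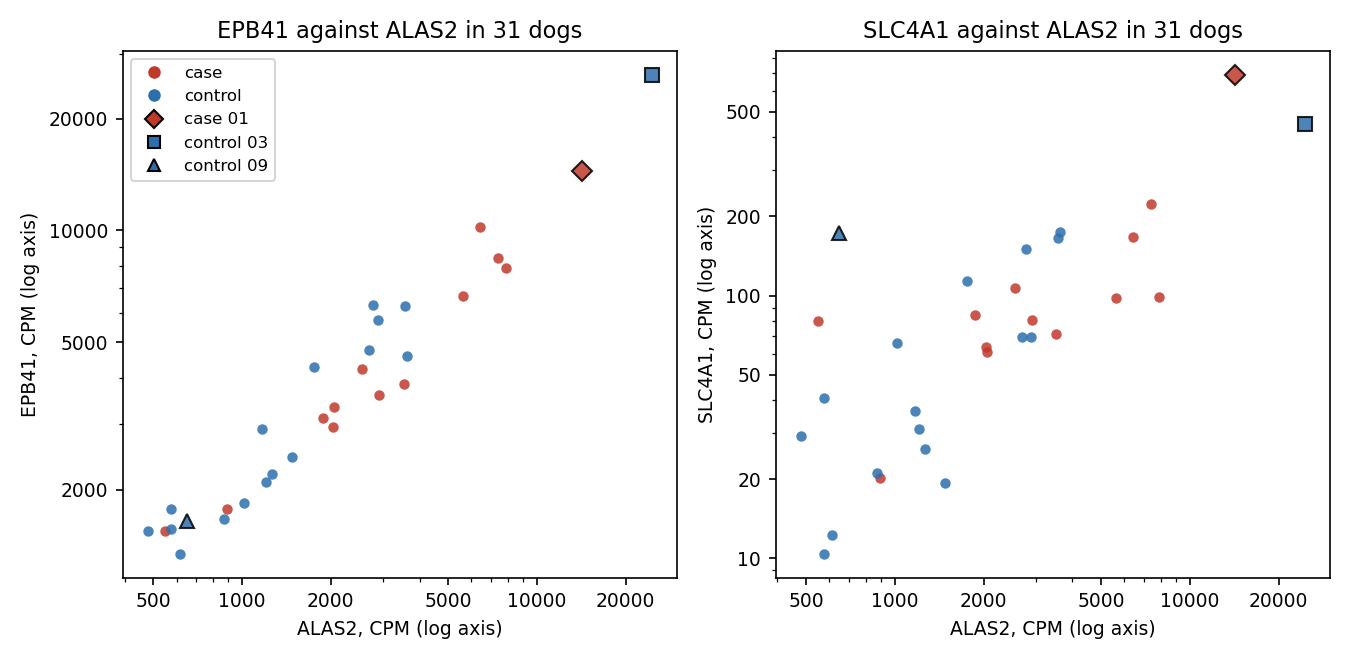
Level of EPB41 (left) and SLC4A1 (right) against that of ALAS2 in 31 dogs, in CPM on log axes; each point is 1 dog, cases in red and controls in blue, with case 01, control 03 and control 09 marked. EPB41 followed ALAS2 closely (r = 0.97), and SLC4A1 less so (r = 0.77), with control 09 far above the other dogs of like ALAS2 level.

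EPOR, XK and TAL1 also followed the markers of another cell type. Against the platelet marker score, EPOR had r = 0.82 (rho = 0.90, adjusted permutation p = 0.000145), XK r = 0.73 (rho = 0.76, adjusted permutation p = 0.000145) and TAL1 r = 0.57 (rho = 0.55, adjusted permutation p = 0.00677). Within cases r was 0.73 for EPOR, 0.65 for XK and 0.46 for TAL1, and within controls 0.76, 0.65 and 0.45. Without the 2 dogs farthest from the median of the score r was 0.84, 0.65 and 0.61. A total of 13 of the 29 genes passed with this score by Pearson r, and of these EPOR, XK and TAL1 passed by Spearman rho as well. An r at least as far from 0 as the smallest of the 13 (0.408) was found in 21.2% of all genes tested, and in 10.6% with a positive sign. ALAS2 had r = 0.50 (rho = 0.40, adjusted permutation p = 0.0244, and 0.0867 for rho), which was 0.39 without those 2 dogs. None of the 29 genes passed with the mean of the small RNA rows.

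**Figure D5:**
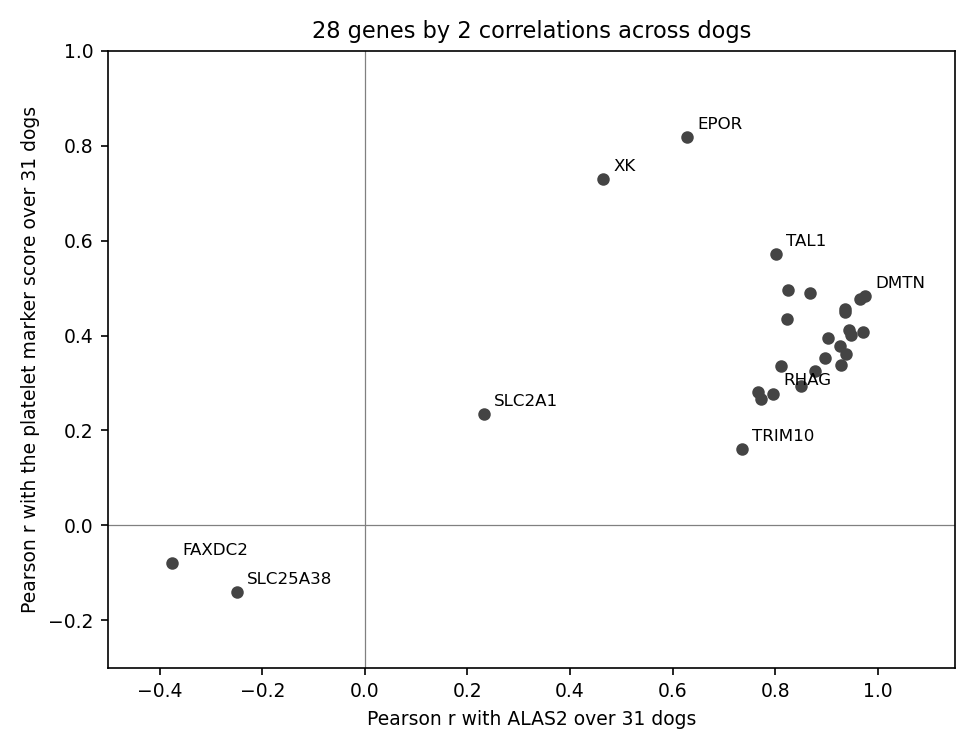
Pearson r of 28 genes with ALAS2 (horizontal axis) and with the platelet marker score (vertical axis), each over 31 dogs; each point is 1 gene. EPOR (0.63 and 0.82) and XK (0.46 and 0.73) lie higher on the vertical than on the horizontal axis, while most genes lie to the right.

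The spread of the genes was wide. The median SD of log2 CPM over the dogs was 0.94 for the 29 genes and 0.37 for all genes tested. ALAS2 had an SD of 1.44, which 1.22% of all genes tested reached, DMTN 1.43, SLC4A1 1.42, HBM 1.40 and KLF1 1.38. At the other end were SLC25A38 (0.16), SLC2A1 (0.26) and TAL1 (0.39). With group means taken out, ALAS2 still had an SD of 1.36, beside its log2 fold change of 0.63 between the groups.

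Sex was the other label that differed between dogs. None of the 29 genes passed the threshold between females and males with group in the edgeR model, where 0.122% of all genes tested did, and none had an unadjusted p under 0.05, against 4.89% of all genes tested. DESeq2 also called none, and limma-voom none with 6 at an unadjusted p under 0.05, against 5.77% of all genes tested. Of the 29 genes, 23 had the higher level in females. With case 01, a female, and control 03, a male, left out, 14 genes had an unadjusted p under 0.05, all with the higher level in females, against 9.16% of all genes tested in either direction, and none passed.

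The case effect in females minus that in males was positive in 28 of 29 genes, with a median of 1.18 on the log2 scale against 0.01 over all genes tested. None of the 29 genes passed (0% of all genes tested did, by edgeR and by DESeq2), and 4 had an unadjusted p under 0.05, against 3.93% of all genes tested. These were KLF1 (2.57 ± 0.99, SE), ANK1 (1.77 ± 0.79), TRIM58 (1.54 ± 0.72) and SLC4A1 (1.91 ± 0.93). In KLF1 the 5 female cases had 27.4 to 327 CPM and the 8 female controls 11.2 to 53.7 CPM, and the 8 male cases had 10.2 to 57.1 CPM and the 10 male controls 6.49 to 256 CPM. The highest female case was case 01 and the highest male control was control 03. Without these 2 dogs the median was 0.13, KLF1 had 0.29, and none of the 29 genes had an unadjusted p under 0.05.

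Other genes of the same pathways were read from lists that are no part of the 33 symbols. Of 15 other tested genes of heme synthesis, transport and breakdown, 12 were higher in cases, with a median log2 fold change of 0.14, and 2 had an unadjusted p under 0.05, against 9.81% of all genes tested. Among them ABCB6, a porphyrin transporter, had 0.76 ± 0.27 (SE). Of 10 iron genes 9 were higher, with a median of 0.13 whichever of the 2 rows of FTH1 was counted, and NCOA4, which releases iron from ferritin, had r = 0.95 with ALAS2. Of 19 other membrane genes 14 were higher, with a median of 0.36, among them TMCC2 (1.35 ± 0.58, SE) and AQP1, the water channel (0.72 ± 0.29, SE). Of 28 late maturation genes 25 were higher, with a median of 0.40, of 22 other erythroid regulators 19, with a median of 0.10, and of 19 genes of red cell metabolism 15, with a median of 0.09. GLRX5 stands on more than 1 of these lists. None of the genes on these 6 lists passed the threshold in edgeR.

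The genes of these lists were also compared with ALAS2 over the 31 dogs. The median r was 0.912 for late maturation, 0.615 for the other regulators, 0.601 for the other membrane genes, 0.535 for the other heme genes and 0.359 for red cell metabolism. For iron it was 0.60 or 0.618, with 1 or the other of the 2 rows of FTH1 counted. The r values of these 6 lists overlapped, and differences between lists were not tested. For the markers of other cell types it was 0.474 for platelets, 0.41 for neutrophils, 0.00289 for monocytes, −0.00735 for B cells and −0.509 for T cells. Among all other rows with a symbol, the 10 with the highest r with ALAS2 were MIOX, PHOSPHO1, ADIPOR1, PSMD8, R3HDM4, FKBP8, CDC25B, CARM1, HAGH and CRAT, with r between 0.975 and 0.984. The highest, MIOX, had r = 0.984 (rho = 0.984), and 0.981 without the 2 dogs farthest from the median of ALAS2, next to 0.976 for DMTN. These 10 were picked as the highest of the rows with a symbol outside the 33. A row without a symbol had an r above that of MIOX, and DMTN lay above the lowest 3 of the 10.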

How the data were processed

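RNA from whole blood (13 cases, 18 controls) gave 1 library for each dog, prepared with a stranded total RNA kit with removal of ribosomal RNA, although the labels also name polyA RNA. The authors trimmed reads with Trimmomatic, aligned them with HISAT2 to the Dog10K_Boxer_Tasha genome (canFam6) and counted pairs with both mates mapped. The deposited values are these counts per gene, without normalization. The counting program was not given in the sources used here. Gene coordinates are not given in the table, so none is printed, and levels of different genes were not ranked because lengths were not given. Differences between the log2 levels of 2 genes were used only to compare dogs.

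Groups, sexes and dog numbers came from the labels. The members and the other gene lists were chosen with earlier results of these data known. In R 4.3.3, edgeR 4.0.16 scaled the counts (TMM), removed low genes with filterByExpr by group and tested 13918 genes with glmQLFit and glmQLFTest, without covariates, since the sources used here do not name the dogs of the study's pilot batch. P-values were adjusted with Benjamini-Hochberg, with a threshold of 0.05. Log2 CPM used a prior count of 2. Nothing in the labels pairs the dogs, and the p-values of the fits judge a difference against the spread between dogs. Correlations were tested two-sided with 100000 permutations in Python 3.11.15 with numpy 2.4.6 and scipy 1.17.1. Alternatives were DESeq2 1.42.0, limma-voom 3.58.1, other scalings, filters and covariates, and leaving out dogs. Added after seeing the data were leaving out each dog in turn and DESeq2 with the small RNA split. On counts simulated for cases against controls in which 200 genes had a true log2 fold change of 1, the edgeR test recovered 88.5% of them among 13813 genes, with 7 unchanged genes among its 184 calls, and with no gene changed it called 0. The changed genes were picked at random and each gene was simulated on its own, so no genes varied together from dog to dog. The share recovered need not hold for the 29 genes, whose median SD of log2 CPM was 0.94, against 0.37 for all genes tested. All 33 symbols are named. Of the other lists at most 4 genes each were named by log2 fold change or by r, and control 09, case 03 and MPO were picked out after their values were seen.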

Additional observations from a re-analysis of the deposited data

How the results depend on the processing

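Between cases and controls, 0 of the 29 genes and 5 of all genes passed in edgeR. With DESeq2 2 of the genes and 85 of all genes passed, with DESeq2 and the small RNA split 2 and 110, and without case 01 and control 03 2 and 28, and these 2 were ALAD and EPOR each time. With limma-voom, with the platelet markers as a covariate, or on either side of the split alone, 0 genes of all passed, and with at least 10 counts in every dog 1 did. Leaving out 1 dog at a time gave 0 to 5 of the 29 genes and 1 to 154 of all genes, the highest of both without control 03. Control 03 was 1 of the 5 controls on the high side of the split. Log2 fold changes turned negative on the high side of the split in ALAS2 (−0.28), UROD (−0.21), PPOX (−0.030), SLC25A37 (−0.037), SLC4A1 (−0.13), EPB41 (−0.37), EPB42 (−0.22), ANK1 (−0.0055), DMTN (−0.27), HBM (−0.45), KLF1 (−0.48), BPGM (−0.49), TRIM58 (−0.16) and RHAG (−0.37), and positive in SLC25A38 (0.010). With the platelet marker score they turned negative in UROS (−0.057), PPOX (−0.040), EPB41 (−0.11), DMTN (−0.062), HBM (−0.34), BPGM (−0.28), TRIM58 (−0.0080) and SLC2A1 (−0.041). For females over males UROS turned positive with limma-voom (0.13), with the split (0.050) and without case 01 and control 03 (0.091), TAL1 with limma-voom (0.0079) and the split (0.016), and EPOR with the split (0.020). The r of SLC2A1 with ALAS2 was −0.041 in cases alone. The cause of these changes was not tested.

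The dog numbers shared by a case and a control pair no dogs in the labels, and 3 of 13 numbered pairs deviated together with a correlation over 0.1. With the number as a replicate block 0 genes of all passed, the median of the 29 genes was 0.49, and SLC2A1 had a log2 fold change of −0.0067. The other counts of the 29 genes stayed at 0 between cases and controls under RLE and upper quartile scaling, scaling without erythroid rows, no filter on low counts, sex, the split or total counts as a covariate. TSPO2 and TFR2, with at most 13 counts in a dog, had SE of at least 0.60 in every fit of cases against controls that held them.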
